A study of Mus musculus with 14 samples.

Results

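Cell cycle and mitosis genes were examined in mouse fibroblasts without a functional Ptdsr gene (Ptdsr-/-, current symbol Jmjd6) against wild-type fibroblasts. The group was built from gene symbols alone: cyclins A, B, D, E and G, cyclin-dependent kinases and their inhibitors, Mcm, Cdc and Cdca genes, Aurora and Polo-like kinases, Bub, Mad2 and Cenp genes, Birc5, Mki67, Top2a and E2f genes, with Cdkn1c and the Cdc42 genes left out. A member also needed a value on 10 or more of 14 arrays, which 88 of the 94 matching genes had, out of 9270 genes tested. The other 6 were Aurkb, Ccnd3, Cdc40, Mcm3, Plk1 and Plk3, measured on 7 to 9 arrays. No probe carried the symbol of Ccnb1, Ccnd1, Cdkn2a, Bub1 or Mki67.

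Knockout and wild-type RNA were hybridised together on each array under different dyes; 7 arrays carried the knockout in Cy5 and the other 7 carried it in Cy3. The series design names 2 cell cultures without saying which arrays came from which, so the p-values below measure the spread between arrays, part of which may be technical. The wild-type RNA was the only control and its own spread was not measured. The sources used here do not give the allele, the tissue of origin or the passage of the fibroblasts. The extraction text speaks of organs and of a pool of control animals where the channel labels name fibroblasts. Values are log2 ratios, knockout over wild type; this direction is likely, not stated. The reverse reading of the Cy3 arrays (turned below) is given for the group and for the members with an unadjusted p below 0.05. Between 13165 and 19615 of 20355 probes had a value on an array, and the number of arrays limits the precision. Jmjd6 itself, averaged over 2 probes, was below 0 on 12 of 14 arrays (fitted -0.25 ± 0.27, SE; limma, adjusted p = 0.934), and whether those probes lie in the deleted part is not given. Of the fibroblast markers, 12 of 13 were measured and 0 were called. Of 7 macrophage markers measured, 6 lay below 0 and Lyz2 was called (-1.62 ± 0.96, SD, n = 14); their part in the ratios below was not tested. Ratios carry no level, so the cell type could not be checked beyond this.

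As background, cyclins switch on cyclin-dependent kinases, which drive a cell from growth through DNA replication into mitosis. The E2f factors, held back by retinoblastoma-family proteins, turn on the replication genes. A second wave of genes for the spindle, the kinetochore and the chromosomal passenger complex is switched on before mitosis through promoters that often hold CCAAT boxes and an element named CHR. Cultured fibroblasts need growth factors to divide, and many of these genes, though not all, can reflect how many cells are cycling. In a culture, fewer dividing cells and less RNA per dividing cell cannot be told apart.

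The promoters of 4 members are shown because these genes stand for the roles compared below: Cdca8 (chromosomal passenger complex), Mcm10 (start of replication), Ccnb2 (mitotic cyclin) and Cdk1 (its kinase). Each is the 150 bases before the start site, 5′ to 3′ on the gene's strand, from RefSeq (GRCm38.p6), with capitals marking TTTGAA (the CHR word) and CCAAT, read on either strand. The positions are chr4:124936918-124937067 for Cdca8, chr2:5012792-5012941 for Mcm10, chr9:70421555-70421704 for Ccnb2 and chr10:69352913-69353062 for Cdk1, all on the minus strand.
Cdca8: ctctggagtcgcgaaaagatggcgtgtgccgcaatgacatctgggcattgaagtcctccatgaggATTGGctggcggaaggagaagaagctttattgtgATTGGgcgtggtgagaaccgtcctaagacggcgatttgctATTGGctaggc
Mcm10: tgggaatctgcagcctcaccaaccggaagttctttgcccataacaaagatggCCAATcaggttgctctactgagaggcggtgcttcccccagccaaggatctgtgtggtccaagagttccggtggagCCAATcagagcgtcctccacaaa
Ccnb2: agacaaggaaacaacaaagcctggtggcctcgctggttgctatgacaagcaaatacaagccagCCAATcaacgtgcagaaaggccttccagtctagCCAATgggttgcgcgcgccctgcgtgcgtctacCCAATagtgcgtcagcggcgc
Cdk1: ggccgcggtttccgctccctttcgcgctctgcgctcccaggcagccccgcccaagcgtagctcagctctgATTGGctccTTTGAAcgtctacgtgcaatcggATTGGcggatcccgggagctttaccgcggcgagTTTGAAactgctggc

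These stretches hold 3 CCAAT words in Cdca8, 2 in Mcm10, 3 in Ccnb2 and 2 in Cdk1, and the Cdk1 stretch also holds 2 TTTGAA words. Promoters of 300 bases (250 before the start and 50 after it) were found for 79 of the 88 members, taking the first listed for a gene. Over these 300 bases Ccnb2 held 2 TTTGAA words and Cdca8 held 1, none of them within the stretches shown, and Mcm10 held 0. At least 2 CCAAT words were in 30.4% of the members' promoters, against 14.8% for the genes tested and 12.2% for all 27025 genes with a promoter. At least 1 CCAAT word was in 53.2%, 38.5% and 37.9%. The shares that follow also count 1 or more matches. TTTGAA was in 22.8%, 11.7% and 18.1%, and TTTGAA together with CCAAT in 17.7%, 4.85% and 7.12%. The E2f-type word TTCCCGC, also read on both strands, was in 16.5%, 7.85% and 4.66%. The promoters of the members therefore held these words more often than the tested genes as a whole, as a description of the symbol-chosen group. Their expression ratios did not form a block of like sign, as follows.

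The comparison asked whether cell cycle transcripts differ without Ptdsr. By limma, 0 of the 88 genes passed at an adjusted p below 0.05, the smallest being 0.302, while 8 of all 9270 genes (0.0863%) passed, all of them lower. At an unadjusted p below 0.05 the count was 6 genes, 2 lower (2.27%, against 2.94% of all genes) and 4 higher (4.55%, against 2.41%). Together this was 6.82% of the members against 5.35% of all genes, a share near the background. Cdca8 and Cdk5r1 were the lower genes, and E2f2, Mcm10, Plk2 and Cdc14b the higher ones.

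The members as a group lay close to 0. Their fitted log2 ratios had a median of 0.0692, with quartiles of -0.0997 and 0.188, against a median of 0.00213 and quartiles of -0.158 and 0.156 over all genes. Of the members, 52 (59.1%) lay above 0, against 50.4% of all genes. With the Cy3 arrays turned the members' median was -0.0231, with 41 members (46.6%) above 0, against a median of -0.00447 and 49.4% above 0 over all genes. The sign of 47 of the 88 members differed between these readings. The same share over all genes was not computed, so the count is not read as a trait of this group. The precision was moderate: the 95% interval lay wholly between a 2-fold reduction and a 2-fold increase for 66 of 88 members (75%, against 81.2% of all genes), and within 1.5-fold either way for 36 (40.9%, against 42.8%). The fitted ratio itself was 1.5-fold or more from 0 for 7 members (7.95%, against 4.47% of all genes). For the remaining 22, a difference of 2-fold was not excluded by these arrays. The SD between arrays had a median of 0.803 over the members and 0.812 over all genes.

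**Figure D1:**
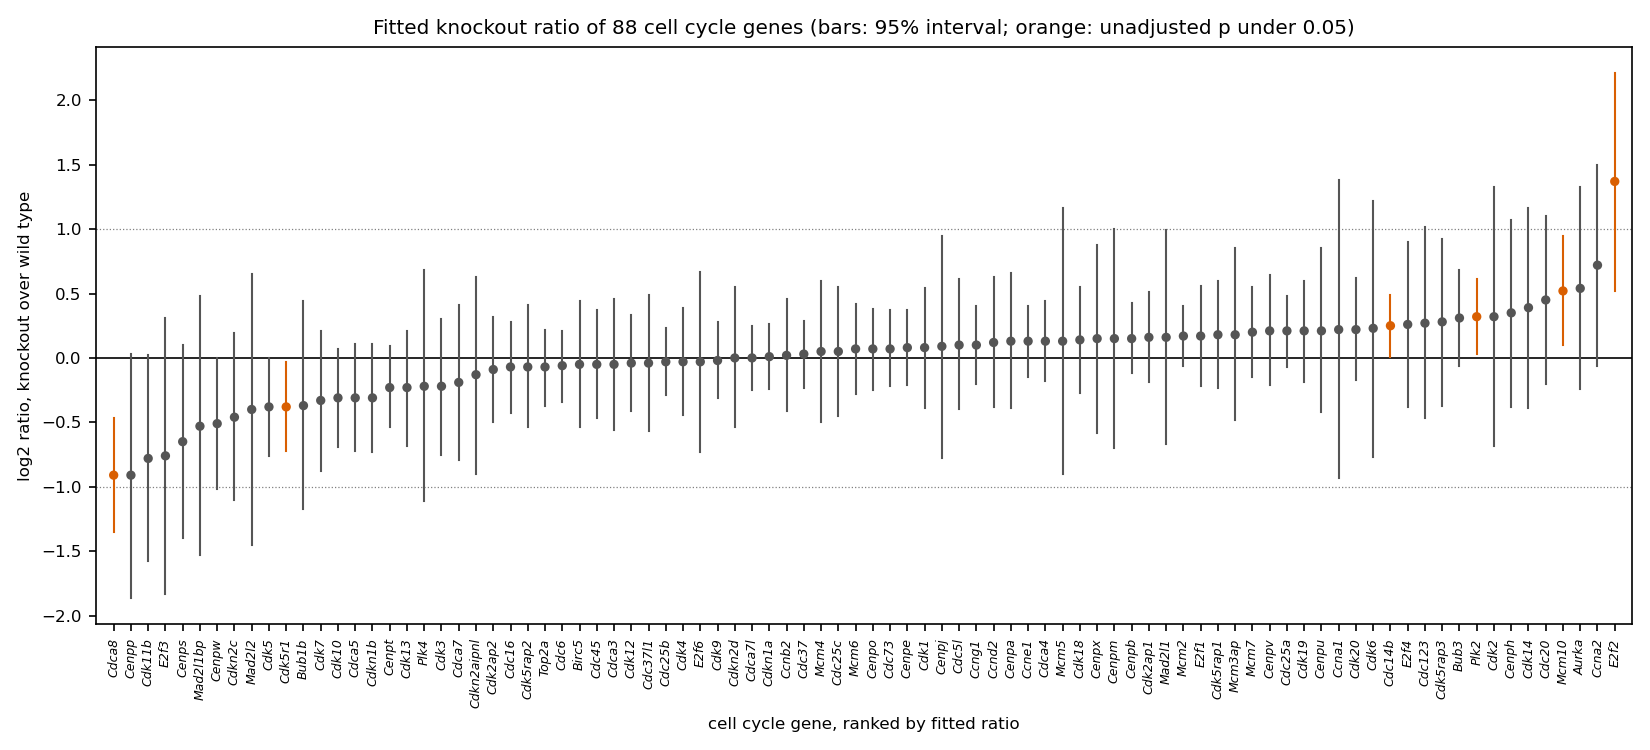
Fitted log2 ratio of knockout over wild type (y axis) for each of the 88 cell cycle genes (x axis, ranked), with bars for the 95% interval and dotted lines at 2-fold. The ratios run from -0.91 (Cenpp and Cdca8) to 1.37 (E2f2), and the 6 genes in orange have an unadjusted p below 0.05.

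Cdca8 encodes borealin, the chromosomal passenger subunit that helps Aurora B and survivin reach the centromere. It had the smallest p of the group and was below 0 on all 12 arrays that measured it. With the knockout in Cy5 its values were -0.52 on replicate 1, -2.71 on 3, -0.45 on 7, -1.09 on 8, -0.71 on 9 and -0.82 on 13. With the knockout in Cy3 they were -0.59 on replicate 5, -0.28 on 6, -1.68 on 10, -0.61 on 11, -1.07 on 12 and -0.40 on 14. The orientations overlapped, replicate 3 was the lowest array, and replicates 2 and 4 had no value. The fitted ratio was -0.91 ± 0.20 (SE, n = 12), a 1.88-fold lower level with a 95% interval from -1.35 to -0.47 (limma, unadjusted p = 0.000557, adjusted p = 0.302). Cdca8 was the 1 member (1.14%) with the same sign on every array that measured it, against 0.237% of all genes.

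The result for Cdca8 did not rest on 1 array. Leaving out each array in turn gave ratios from -0.97 to -0.74, with unadjusted p up to 0.00162, and replicates 7 to 12 alone gave -0.93. If the Cy3 arrays in fact needed turning, the ratio would be -0.14 (unadjusted p = 0.5). The gene has 1 probe, so no second probe bears on it. Of its values, 25% were ratios of small whole numbers, a stand-in for dim spots, against 22.5% over all members. With such values set to missing, too few arrays were left to fit the gene.

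The partners of borealin were looked at beside it. Birc5 (survivin) stood at -0.05 ± 0.88 (SD, n = 14), with values from -2.10 to 1.19, 9 arrays below 0 and 5 above. Aurkb, the kinase of the complex, had values on 9 arrays only, from -2.50 to 2.91, with 3 below 0 and 6 above, and was not tested. Incenp, also of this complex but outside the symbol rule, stood at 0.08 ± 0.14 (SE, n = 14), with 5 arrays below 0 and 9 above. The 95% interval of Cdca8 (-1.35 to -0.47) and that of Birc5 (-0.54 to 0.44) overlapped at their ends. That of Incenp (-0.21 to 0.37) did not overlap the interval of Cdca8. The differences between the genes were not tested. Birc5 lies on the chromosome of Jmjd6, with 13 protein-coding genes between them in the RefSeq order; it was the nearest protein-coding member.

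E2f2 is an activator of replication genes. With the knockout in Cy5 it ranged from 0.01 to 1.92 with a median of 0.75 (n = 7), and with the knockout in Cy3 from -0.26 to 4.71 with a median of 1.18 (n = 6). It was above 0 on 12 of 13 arrays, and replicates 11 and 12, at 4.43 and 4.71, stood far above the others, the next being 1.92. The fitted ratio was 1.37 ± 0.39 (SE, n = 13; limma, unadjusted p = 0.00366, adjusted p = 0.604), the highest of the group as read here. With the Cy3 arrays turned it was -0.52 (unadjusted p = 0.209), and Mad2l1bp had the highest ratio (1.41). Without replicates 11 and 12 it was 0.70 (adjusted p = 0.769), an alternative chosen after the values were seen; over all alternatives the adjusted p of E2f2 ran from 0.51 to 1. Of its values, 36.8% were ratios of small whole numbers, used here as a stand-in for dim spots since the deposited values hold no intensity, against 22.5% over all members. The probe with 13 arrays gave 1.06 (limma, unadjusted p = 0.0389), and was above 0 on 9 arrays and below on 4. The other had values on 6 arrays, 5 above 0 and 1 below.

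The other E2f genes gave no common direction. E2f1, an activator like E2f2, stood at 0.17 ± 0.18 (SE, n = 13), with 7 arrays below 0 and 6 above. E2f3, the third activator, stood at -0.76 ± 0.49 (SE, n = 10) with values from -3.52 to 3.41. E2f4, a repressor in resting cells, stood at 0.26 and E2f6, a repressor that acts without retinoblastoma proteins, at -0.03. In all, 3 of the 5 E2f genes measured lay above 0, with a median of 0.168 and 0 called.

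The Mcm proteins form the helicase that is loaded at origins and unwinds DNA, and Mcm10 helps to start it. All 6 Mcm genes measured (Mcm2, Mcm4, Mcm5, Mcm6, Mcm7 and Mcm10) had fitted ratios above 0 under every centring tried, with 0 called. With the Cy3 arrays turned 5 of 6 did, Mcm2 being the exception, on the Cy3 arrays alone 4 of 6 (not Mcm4 and Mcm6), on replicates 1 to 6 alone 5 of 6 (not Mcm5), and on replicates 7 to 12 alone 4 of 6 (not Mcm4 and Mcm6). The sizes were small. Mcm2 stood at 0.17 ± 0.11 (SE, n = 14) and was above 0 on 12 of 14 arrays, from -0.23 to 0.90. Mcm7 stood at 0.20 ± 0.16, Mcm6 at 0.07 ± 0.16, Mcm4 at 0.05 ± 0.26 (SE, n = 14 each) and Mcm5 at 0.13 ± 0.48 (SE, n = 12). The intervals of Mcm2, Mcm4, Mcm6 and Mcm7 excluded a 2-fold difference, whereas that of Mcm5 ran from -0.90 to 1.16.

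Mcm10 stood at 0.52 ± 0.20 (SE, n = 14; limma, unadjusted p = 0.0184, adjusted p = 0.842). With the Cy3 arrays turned it was 0.09 (unadjusted p = 0.672), below Mcm6 at 0.13. It ranged from -0.54 to 1.42 with the knockout in Cy5 (median 0.43) and from -0.69 to 1.64 with the knockout in Cy3 (median 0.40), with 11 arrays above 0 and 3 below. Replicates 1, 3, 4 and 5 held the 4 highest values, and the orientations overlapped. Its 3 probes disagreed: they gave 1.62 (n = 10), 0.52 (n = 11) and -0.26 (n = 13), so the probe with most values had the opposite sign. Cdc6, which loads the helicase, stood at -0.06 ± 0.13 and Cdc45, part of the moving helicase, at -0.05 ± 0.19 (SE).

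**Figure D2:**
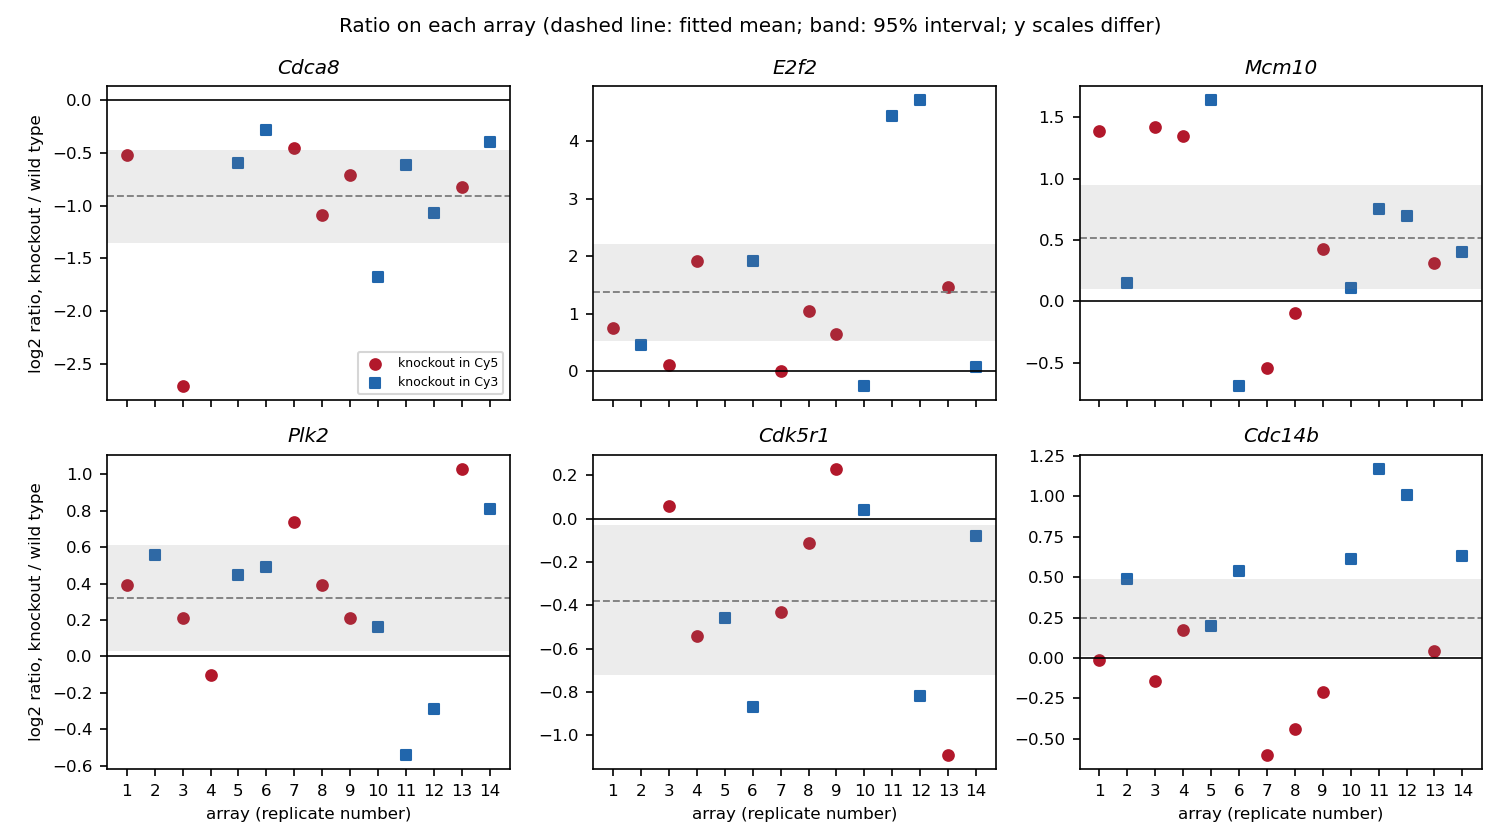
Log2 ratio on each array (x axis, replicate number) for the 6 genes with an unadjusted p below 0.05, with red circles for knockout in Cy5 and blue squares for knockout in Cy3; the dashed line is the fitted mean and the band its 95% interval, and the y scales differ. Cdca8 lies below 0 on all 12 arrays, E2f2 reaches 4.43 and 4.71 on replicates 11 and 12, and the Cdc14b values of the dyes do not overlap.

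The cyclins were measured for 6 genes, and all 6 had fitted ratios above 0, again under every centring, with a median of 0.124 and 0 called. With the Cy3 arrays turned all 6 lay below 0. On the Cy5 arrays alone 5 of 6 were below 0 (all but Ccna1), and on replicates 7 to 12 alone 4 of 6 were (all but Ccna1 and Ccng1). Ccna2, the cyclin of S phase and early mitosis, stood at 0.72 ± 0.36 (SE, n = 13). Its mean was -0.34 ± 1.61 over the 6 Cy5 arrays (SD, n = 6) but 1.78 ± 1.29 over the 7 Cy3 arrays (SD, n = 7). Of its 2 probes, 1 gave a fitted 1.09 (n = 11). The other had a plain mean of -0.22 on 9 arrays and was not tested. Ccnb2, a mitotic cyclin, stood at 0.02 ± 0.20 (SE, n = 13), and its 2 probes gave 0.42 and -0.47. Ccnd2, which answers to growth factors, stood at 0.12 ± 0.24, and Ccne1, which acts at the entry into S phase, at 0.13 ± 0.13 (SE, n = 14 each).

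The cyclin-dependent kinases split nearly evenly, with 7 of 16 above 0, 9 below, a median of -0.0206 and 0 called. Cdk1, the mitotic kinase, stood at 0.08 ± 0.22 (SE, n = 14), with values from -0.92 to 1.63, 8 arrays below 0 and 6 above. Cdk4, the partner of D cyclins, stood at -0.03 ± 0.20 (SE, n = 14) and Cdk2, the partner of cyclins E and A, at 0.32 ± 0.46 (SE, n = 10). The intervals of Cdk1 (-0.39 to 0.54) and Cdk4 (-0.44 to 0.39) exclude a 2-fold difference, and that of Cdk2 (-0.68 to 1.33) does not. The kinases with the smallest p were Cdk5, a kinase best known from neurons, at -0.38 ± 0.18 (SE, n = 14, unadjusted p = 0.0524), and Cdk11b at -0.78 ± 0.37 (SE, n = 12, unadjusted p = 0.0542). Cdk5 was below 0 on 11 of 14 arrays. Cdk11b was below 0 on 10 of 12, with 1 array at -4.56. Cdk5r1, the p35 activator of Cdk5, also lay below 0, at -0.38 ± 0.16 (SE, n = 11, limma, unadjusted p = 0.0362, adjusted p = 0.901), with values from -1.09 to 0.23 and 8 arrays below 0. Cdk5r1 was at 0.06 with the Cy3 arrays turned (unadjusted p = 0.697). Of its values, 45.5% were ratios of small whole numbers.

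Among the inhibitors that hold these kinases back, 0 of 4 were called and the median was -0.156. Cdkn1a (p21), a target of p53, stood at 0.01 ± 0.12 (SE, n = 14), with all arrays between -0.58 and 0.43. Its interval of -0.24 to 0.26 was among the narrower ones and excludes a 1.5-fold difference. Cdkn1b (p27) stood at -0.31 ± 0.20 (SE, n = 14), below 0 on 10 of 14 arrays, and 1 of its 2 probes had an unadjusted p of 0.0298 at -0.40 (adjusted p = 0.895). Cdkn2c (p18) stood at -0.46 ± 0.30 (SE, n = 12), below 0 on 8 of 12 arrays, from -2.36 to 1.23. The Cdc25 phosphatases, which remove the block on the kinases, gave 0.21 for Cdc25a, -0.03 for Cdc25b and 0.05 for Cdc25c, each within 2-fold by its interval.

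**Figure D3:**
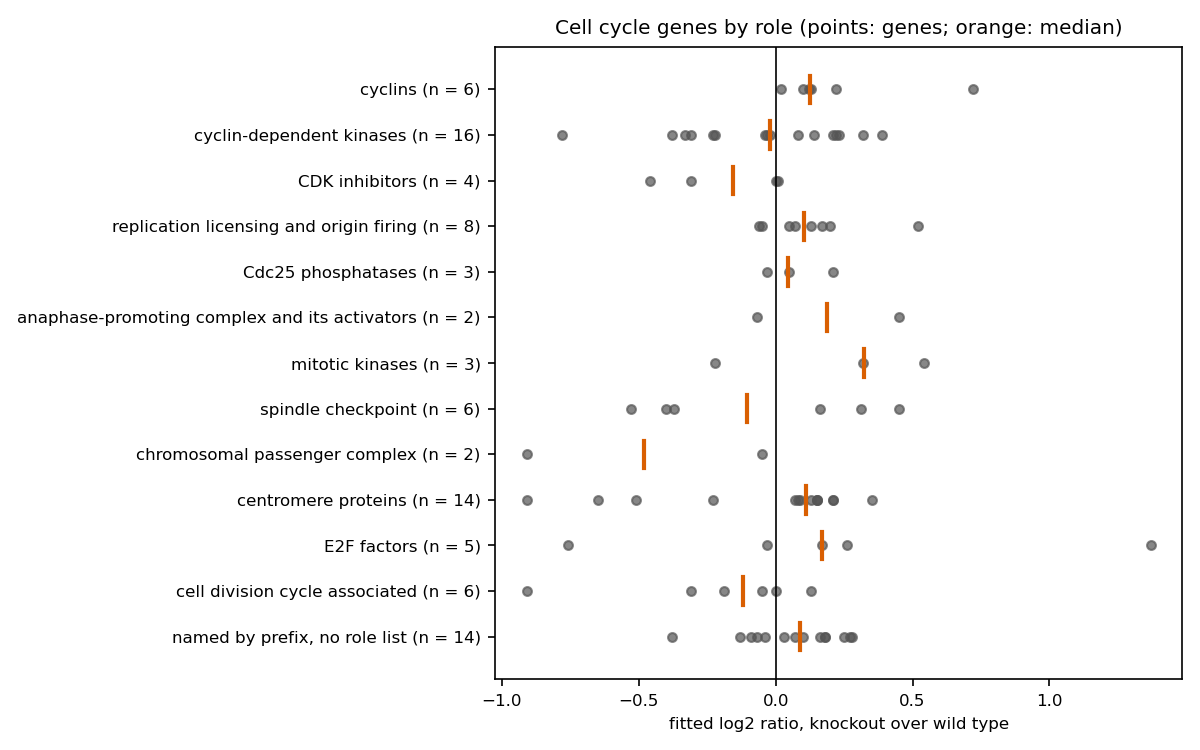
Fitted log2 ratio of knockout over wild type (x axis) for each gene, by role (y axis, number measured in brackets); a gene can stand in more than 1 role, and the orange mark is the median. The medians run from -0.48 (chromosomal passenger complex, 2 genes) to 0.321 (mitotic kinases, 3 genes), and no gene was called.

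Of the kinases that act on the spindle and centrosome, 3 were measured widely enough. Aurka, which matures centrosomes, stood at 0.54 ± 0.36 (SE, n = 13), from -1.40 to 3.37, and 70.6% of its values were ratios of small whole numbers. Plk2, a Polo-like kinase of early G1 and of stress responses, stood at 0.32 ± 0.13 (SE, n = 14; limma, unadjusted p = 0.0303, adjusted p = 0.901). Its values ran from -0.10 to 1.03 with the knockout in Cy5 (median 0.39) and from -0.54 to 0.81 with the knockout in Cy3 (median 0.45). It was above 0 on 11 of 14 arrays, replicates 4, 11 and 12 being below. The ratio of Plk2 was 0.09 with the Cy3 arrays turned (unadjusted p = 0.52). Only 7.14% of its values were ratios of small whole numbers, and the interval of 0.03 to 0.61 excludes a 2-fold difference. Plk1, the main mitotic Polo-like kinase, had values on 7 arrays, from -2.26 to 2.58, and was not tested.

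The spindle checkpoint, which delays anaphase until all chromosomes are attached, had 3 genes above 0 and 3 below, with 0 called. Bub3 stood at 0.31 ± 0.17 (SE, n = 14) and Cdc20, the target of the checkpoint and activator of the anaphase-promoting complex, at 0.45 ± 0.30 (SE, n = 11). Bub1b stood at -0.37 ± 0.38 (SE, n = 14) and Mad2l1 at 0.16 ± 0.38 (SE, n = 10), with arrays from -3.57 to 1.78 and from -2.94 to 1.79. Cdc16, a subunit of the anaphase-promoting complex, stood at -0.07 ± 0.17 (SE, n = 14). The ratios of this group were thus spread wider between arrays than their means lay from 0.

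Cenp genes, grouped as centromere proteins by their symbols alone, had 10 of 14 above 0, 4 below, a median of 0.11 and 0 called. Cenpa, the histone variant that marks the centromere, stood at 0.13 ± 0.24 (SE, n = 12). The smallest p in the group belonged to Cenpw at -0.51 ± 0.24 (SE, n = 11, unadjusted p = 0.0519) and Cenpp at -0.91 ± 0.43 (SE, n = 11, unadjusted p = 0.057), both kinetochore subunits. Cenpp ran from -2.46 to 3.29, and 72.7% of its values were ratios of small whole numbers. Top2a, the topoisomerase that untangles sister chromatids and a common marker of dividing cells, stood at -0.07 ± 0.14 (SE, n = 13). Its arrays lay between -0.79 and 0.74, 7 below 0 and 6 above, and the interval of -0.37 to 0.22 excludes a 1.5-fold difference.

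Among the Cdca genes, named for their rise and fall with cell division genes, 4 of 6 lay below 0, with 0 called. Next to Cdca8, the smallest p was that of Cdca5 (sororin, which protects sister chromatid cohesion), at -0.31 ± 0.20 (SE, n = 14), below 0 on 10 of 14 arrays. The 14 members that stand in no role list, among them the chaperone partner Cdc37 and the splicing factor Cdc5l, lay between -0.38 and 0.28, with 0 called.

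**Figure D4:**
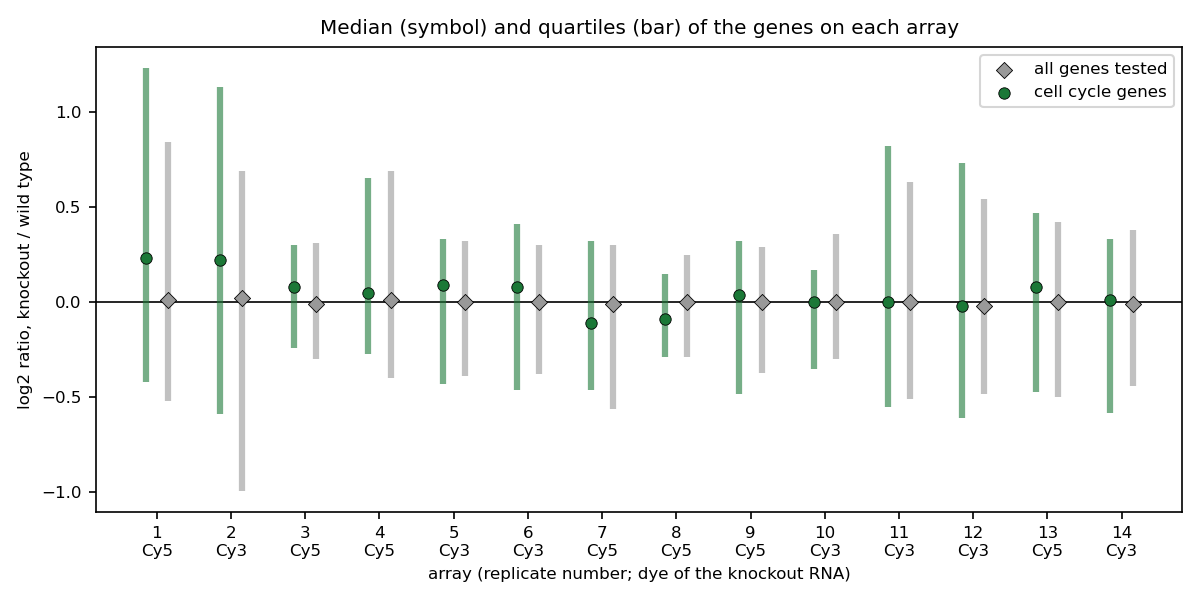
Median (symbols) and quartiles (bars) of the log2 ratio on each array (x axis, replicate number and dye of the knockout), for the cell cycle genes in green and all genes tested in grey. The medians of the cell cycle genes run from -0.11 on replicate 7 to 0.23 on replicate 1.

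The position of the group differed between arrays. On replicates 1 to 6 the members' medians were 0.23, 0.22, 0.08, 0.05, 0.09 and 0.08, and all 6 lay above the median of all genes on the same array. On replicates 7 to 12 they were -0.11, -0.09, 0.04, 0, 0 and -0.02, and on replicates 13 and 14 they were 0.08 and 0.01. The share of members above 0 ran from 39.3% on replicate 8 to 58.3% on replicate 1. Fitted on replicates 1 to 6 alone, the median over 81 members was 0.17, against 0.022 over all genes. On replicates 7 to 12 alone it was -0.0296 over 86 members, against -0.0104. These ranges of numbers are not labelled groups and were known from earlier results, and the difference between them was not tested. Replicates 1 and 2 also had the most missing values; without them the median was 0.0211.

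The ratios of the members were also compared between the dye orientations. The dye term of the model is the distance of the Cy5 arrays from the midpoint between the orientations, so the orientations lie further apart than its value. Its test is also the one that turning the Cy3 arrays would give. By limma it was called for 0 of 88 members and for 4 of 9270 genes (0.0431%). At an unadjusted p below 0.05 it was found for 10 members (11.4%, against 7.43% of all genes). Of these, 5 were higher with the knockout in Cy3 (5.68%, against 4.64% of all genes) and 5 were higher with it in Cy5 (5.68%, against 2.79%). The former were Cdc14b, Ccna2, Ccnb2, Cdk2 and Cdk6, and the latter Mad2l1bp, Mcm3ap, Cenpu, E2f3 and Cenpj. Cdc14b, a phosphatase that opposes the kinases, was the 1 member (1.14%, against 0.583% of all genes) whose orientations did not overlap. It ran from -0.60 to 0.17 with the knockout in Cy5 and from 0.20 to 1.17 with the knockout in Cy3, with a dye term of -0.42 (unadjusted p = 0.00201, adjusted p = 0.471). Its mean ratio, 0.25 ± 0.11 (SE, n = 14, limma, unadjusted p = 0.0428, adjusted p = 0.901), was thus carried by the Cy3 arrays, and on the Cy5 arrays alone it was -0.17.

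**Figure D5:**
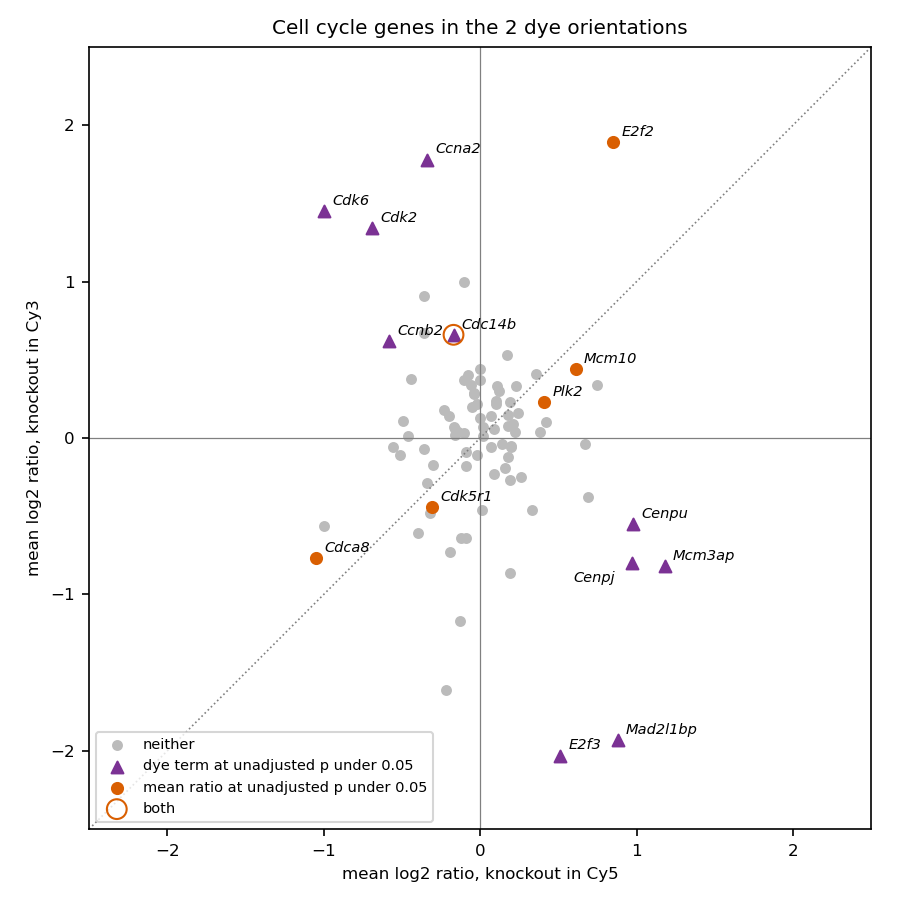
Mean log2 ratio of each cell cycle gene with the knockout in Cy5 (x axis, 7 arrays) and in Cy3 (y axis, 7 arrays); the dotted line marks equal means. Cdca8, Cdk5r1, Plk2, Mcm10 and E2f2 (orange) have the same sign in both, whereas the 10 genes marked with triangles differ between the dyes at an unadjusted p below 0.05 and lie in opposite quadrants.

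Different probes of a gene did not always share a sign. Of 19 members with 2 or more tested probes, 10 had probes of opposite sign, among them Ccnb2, Mcm10 and Cdc16. The share over all genes was not computed, so the count describes these 19 members only. Of the 112 tested probes of members, 0 were called by limma, against 6 of all 18503 probes (0.0324%), and 6 (5.36%) had an unadjusted p below 0.05, against 5.05% of all probes. Members whose share of small whole-number ratios was above the members' median of 19% had a median SD between arrays of 1.08, and the others 0.663. Over all genes, divided at the same share, the values were 1.01 and 0.66.

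Genes of the same pathway outside the symbol rule were also examined. Of 82 such genes tested, 0 were called by limma. An unadjusted p below 0.05 was found for 3 genes that were lower (3.66%, against 2.94% of all genes) and 3 that were higher (3.66%, against 2.41%), shares near the background, and 41 lay on each side of 0, with a median of -0.00973. Among the pocket proteins and E2f partners (9 genes) the smallest p was that of Rbl1 (p107, a retinoblastoma relative), at -0.36 ± 0.13 (SE, n = 14), below 0 on 12 of 14 arrays (limma, unadjusted p = 0.0171, adjusted p = 0.842). Among the p53 and damage checkpoint genes (6 measured) it was that of Btg2, an antiproliferative p53 target, at -0.36 ± 0.11 (SE, n = 14), also below 0 on 12 of 14 (limma, unadjusted p = 0.0058, adjusted p = 0.711). Rbl1 was at -0.02 and Btg2 at 0.09 with the Cy3 arrays turned. The spindle and kinetochore genes (18) were led by the motor gene Kif4 at 0.75 ± 0.32 (SE, n = 11, unadjusted p = 0.0361), above 0 on 9 of 11 arrays, and at 0.53 with the Cy3 arrays turned. In the replication machinery (21) the smallest p was that of Gins1 (0.95), in nucleotide synthesis (4) of Tk1 (0.27), among cohesin and condensin genes (9) of Ncaph (-0.49) and among ubiquitin ligase genes (15) of Skp1 (0.50), each with an unadjusted p above 0.05.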

How the data were processed

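For each array the authors deposited 1 log2 ratio per probe (20355 probes). How spots were scanned, corrected for background and normalized is not stated in the sources used here; the log base was read from the values. Coded extremes (absolute value above 12) were set to missing and each array was centred on its median. Probes with 1 gene symbol in GEO's platform annotation (14030; 5 had several, 6320 none) were averaged per gene. Genes with values on 10 or more arrays, 4 or more per dye orientation, were fitted with limma 3.58.1 (R 4.3.3): an intercept tested against 0 and a dye term, eBayes, Benjamini-Hochberg adjustment over all 9270 genes, called at 0.05. Fitted ratios come from this model, as do SEs and 95% intervals; means with SD are plain averages over arrays.

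Values within 0.0011 (log2) of a ratio between whole numbers no larger than 10 served as a stand-in for dim spots. The model was tested on simulated data. The members and lists were chosen with earlier results of these data known. Named genes were those at an unadjusted p below 0.05, the 2 smallest p in each role, a list of well-known regulators, and the smallest p in each list outside the members; others were named after their values were seen. Alternatives varied probe choice, filters, centring, extremes, direction, dye, blocks, prior and arrays.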

Additional observations from a re-analysis of the deposited data

Results flagged for a closer look

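Dixon's test was applied to named cell cycle genes in 80 sets of 4 to 7 arrays, each within 1 dye orientation. For normally spread values it flags about 1 in 20 such sets. The share flagged over all genes was not computed, so an excess in these genes cannot be read from the count. In these sets 11 values stood apart from the nearest other array. With the knockout in Cy5 these were Cdca8 at -2.71 on replicate 3, Mcm4 at -0.42 on replicate 1, and, all on replicate 7, Aurka at 3.37, Birc5 at -2.10 and Cenpa at -1.80. With the knockout in Cy3 they were Cdk5 at -2.05 and Mcm2 at 0.90 on replicate 12, Cdca5 at 1.17 and Mcm7 at 1.80 on replicate 2, Cdc16 at -1.18 on replicate 10 and Ccnb2 at 2.02 on replicate 5. Without replicate 3, which held the lowest Cdca8 value, the ratio of that gene was -0.74 (unadjusted p = 0.00043, adjusted p = 0.266) by limma; over all alternatives its adjusted p ran from 0.182 to 0.967.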

How the results depend on the processing

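No member was called by limma under any of the 32 alternatives run, nor was a dye term of a member in the 15 and 14 alternatives that have one, or a probe of a member in the 16 and 14 that fit probes (leaving out 1 array counted second). The count of all genes called (8) was 4 with the Cy3 arrays turned, 0 on the Cy5 arrays, the Cy3 arrays or replicates 1 to 6 alone (6.02%, 6.85% and 5.12% of genes at an unadjusted p below 0.05), 5 with a random block of number range and dye and 4 without replicates 11 and 12. The count of members lower at an unadjusted p below 0.05 (2) was 1 with values on all 14 arrays, with whole-number ratios set to missing or on the Cy5 arrays alone. It was 4 with centring on probes measured on all arrays, without the dye term or without replicates 11 and 12. It was 5 without centring, with the Cy3 arrays turned or without replicates 1 and 2, 6 with number range as a fixed block or on replicates 7 to 12 alone, and 8 on the Cy3 arrays alone. The count of members higher (4) was 2 with 1 probe per gene, on replicates 7 to 12 alone or without replicates 1 and 2, and 7 without replicates 11 and 12. The members' median of 0.0692 was 0.17 on replicates 1 to 6, -0.0296 on replicates 7 to 12 and -0.0231 with the Cy3 arrays turned. Leaving out 1 array at a time gave 6 to 9 genes called, 2 to 5 members lower, 2 to 5 higher, and medians from 0.0258 to 0.0797. The lower count was 4 or 5 without replicate 1, 2, 4 or 10, and the higher count was 2 without replicate 6, 13 or 14. The unadjusted p was above 0.05 in 6 of these 14 fits for Cdk5r1 and Plk2 each and in 10 for Cdc14b, and in 0 for Cdca8, E2f2 and Mcm10. Among the members at an unadjusted p below 0.05, the sign changed for Mcm10 with 1 probe per gene (-0.26). With the Cy3 arrays turned it changed for Cdc14b (-0.42), Cdk5r1 (0.06) and E2f2 (-0.52), and on the Cy5 arrays alone for Cdc14b (-0.17). Other named genes also crossed 0 and are not all listed. Examples are Ccna2 with the Cy3 arrays turned (-1.06) and Ccnb2 with 1 array left out (as low as -0.12). The cause was not tested. Turning the Cy3 arrays exchanges the mean and the dye term by construction. Cdca8, measured on 12 arrays, could not be fitted where all arrays had to have a value or whole-number ratios were missing. The setting without replicates 11 and 12 was chosen after seeing the data. Each ratio already pairs knockout and wild-type RNA on 1 array, and no further pairing was used because the arrays form 1 group of ratios. Signal over background is not in the deposited values.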
